A study of Mus musculus with 6 samples.

Results

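Collagens are the triple-helical proteins of the extracellular matrix. The members described here are the collagen alpha-chain genes of the mouse, taken by their symbols (Col, a number, a, a number): 44 of the 32285 genes in the count tables. The study measured RNA in single nuclei of subcutaneous white adipose tissue from 2 groups of mice, with 3 libraries each, made with the 10x Genomics droplet method that counts unique molecular identifiers (UMIs) near the 3′ end of poly-A RNA. Flox controls are GPSM1f/f mice, whose loxP-flanked Gpsm1, a regulator of G-protein signalling, was not deleted. Knockouts are GPSM1ΔTreg mice, where by the labels Gpsm1 was deleted in regulatory T cells, and the Cre driver is not given in the sources used here. Both groups ate a high-fat diet, labelled 12 weeks, after a start at 7 weeks of age. Nuclei were stained with DAPI and sorted before loading. Each number, 1 to 3, is 1 library, and the protocol gives 3 mice per genotype, so every test compares 3 libraries with 3 libraries.

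Fibrillar collagens (types I, III and V) build the fibres that give tissue its tensile strength. Type IV collagens form the sheet of the basement membrane that surrounds every adipocyte and every vessel, and type VI collagens form beaded filaments between cells and fibres. In adipose tissue, fibroblast-like stromal cells called adipose stem and progenitor cells (ASPCs) are the usual source of fibrillar collagen, and the expansion of fat in obesity is known to be accompanied by matrix remodelling. Each collagen molecule is a trimer of alpha chains, so genes of partner chains (Col4a1 with Col4a2, or Col6a1 with Col6a2 and Col6a3) are usually needed together in 1 cell.

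In all, 56226 nuclei passed the filters, with 9113 to 9729 per library and a median of 2054 to 3198 UMIs per nucleus. Any pair of libraries shared 24 to 44 barcode sequences, at most 0.409% of the smaller library. Clusters were named from marker genes that include no collagen. They gave 16127 adipocyte-like, 11819 ASPC-like, 3981 endothelial-like, 807 mural-like (pericyte and smooth muscle type), 9191 macrophage-like and 7429 B cell-like nuclei, beside smaller classes and 1152 unnamed nuclei. One adipocyte-like cluster of 3019 nuclei, called c6 below, had a median of 1255 UMIs and took 88.6% of its nuclei from flox control 3, so adipocyte results that turn on it are given without it too. B cell-like nuclei made up 1.03% to 5.05% of the flox control libraries and 12.3% to 38.3% of the knockout libraries. Endothelial-like nuclei made up 9.7% ± 0.939 (SD, n = 3) of flox control and 4.55% ± 1.94 of knockout libraries, and mural-like nuclei 2.1% ± 0.179 and 0.788% ± 0.166. Gpsm1 itself was at 18.5 to 46.0 CPM (UMIs per 1000000) in T cell-like nuclei of the flox controls and at 20.5 to 21.6 in the knockouts, and Foxp3 was seen in only 3 to 6 and 6 to 35 of these nuclei per library. Reads near the 3′ end need not cover the deleted part, so these values do not check the deletion.

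The 6 type IV genes lie in the genome as 3 head-to-head pairs, and the short stretches between or just before their start sites are shown because the 3 pairs had different distributions over the cell classes below. The sequences are from RefSeq (GRCm38.p6, the same assembly as mm10), 5′ to 3′ on the strand named. Capitals mark a CCAAT box (CCAAT) or a GC box (GGGCGG), read on either strand, so that CCGCCC is a GC box of the other strand. The Col4a1 and Col4a2 start sites overlap by 22 bases, those of Col4a4 and Col4a3 lie 71 bases apart, and those of Col4a6 and Col4a5 lie 1308 bases apart.
Col4a1/Col4a2, chr8:11312805-11312826, plus strand, the overlap of both starts: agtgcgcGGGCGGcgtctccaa
Col4a4/Col4a3, chr1:82586850-82586920, plus strand, between both starts: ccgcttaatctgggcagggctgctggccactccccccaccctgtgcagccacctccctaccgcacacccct
Col4a5 upstream, chrX:141475169-141475384, plus strand: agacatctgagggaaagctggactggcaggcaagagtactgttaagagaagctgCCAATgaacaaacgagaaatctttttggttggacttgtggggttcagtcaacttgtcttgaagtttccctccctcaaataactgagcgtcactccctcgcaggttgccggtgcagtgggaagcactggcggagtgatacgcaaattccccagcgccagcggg
Col4a6 upstream, chrX:141474077-141474326, minus strand: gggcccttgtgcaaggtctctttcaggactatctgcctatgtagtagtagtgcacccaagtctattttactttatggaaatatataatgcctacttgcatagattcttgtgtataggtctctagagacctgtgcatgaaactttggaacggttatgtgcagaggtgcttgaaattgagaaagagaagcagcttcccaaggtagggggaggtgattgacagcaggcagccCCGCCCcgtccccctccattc

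The Col4a5 stretch held 1 CCAAT box, the Col4a6 stretch and the Col4a1/Col4a2 stretch held 1 GC box each, and the Col4a4/Col4a3 stretch held neither. TATAAA was searched too and was in none of the 4. Over 32817 RefSeq promoter windows of 300 bases (250 before and 50 after a start), 37.4% held CCAAT, 35.6% GGGCGG and 13.6% TATAAA on either strand. A match is a description of letters, not of a bound site, and the stretches shown are shorter than those windows.

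Collagens made up 696268 UMIs, 0.29% of all UMIs in the kept nuclei, and 26 of the 44 genes had at least 1000. Levels below are in CPM, a gene's UMIs per 1000000 UMIs of all nuclei of a class or cluster in 1 library. Summed over the 44 genes, the level was highest in ASPC-like nuclei, at 8500 to 13210 CPM across the 6 libraries, about 1.07% of their UMIs. It was 4182 to 6955 in mural-like, 2061 to 2963 in endothelial-like and 1401 to 1871 in adipocyte-like nuclei. B cell-like nuclei, a lymphocyte class not known as a source of matrix, still showed 262 to 842 CPM. Droplets also take up free RNA, so the B cell-like level is given below as a stand-in for the background of each gene. B cell-like nuclei held a median of 1610 and 1350 UMIs in flox control and knockout libraries, against 6820 and 5960 in adipocyte-like nuclei. The share of free RNA can differ with such depths, which was not tested, so the stand-in is not a measured background of another class. Epithelial-like nuclei read 1757 to 5910. They and the lymphatic endothelial-like nuclei had under 20 nuclei in at least 1 library, so they are left out where classes are ordered below.

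**Figure D1:**
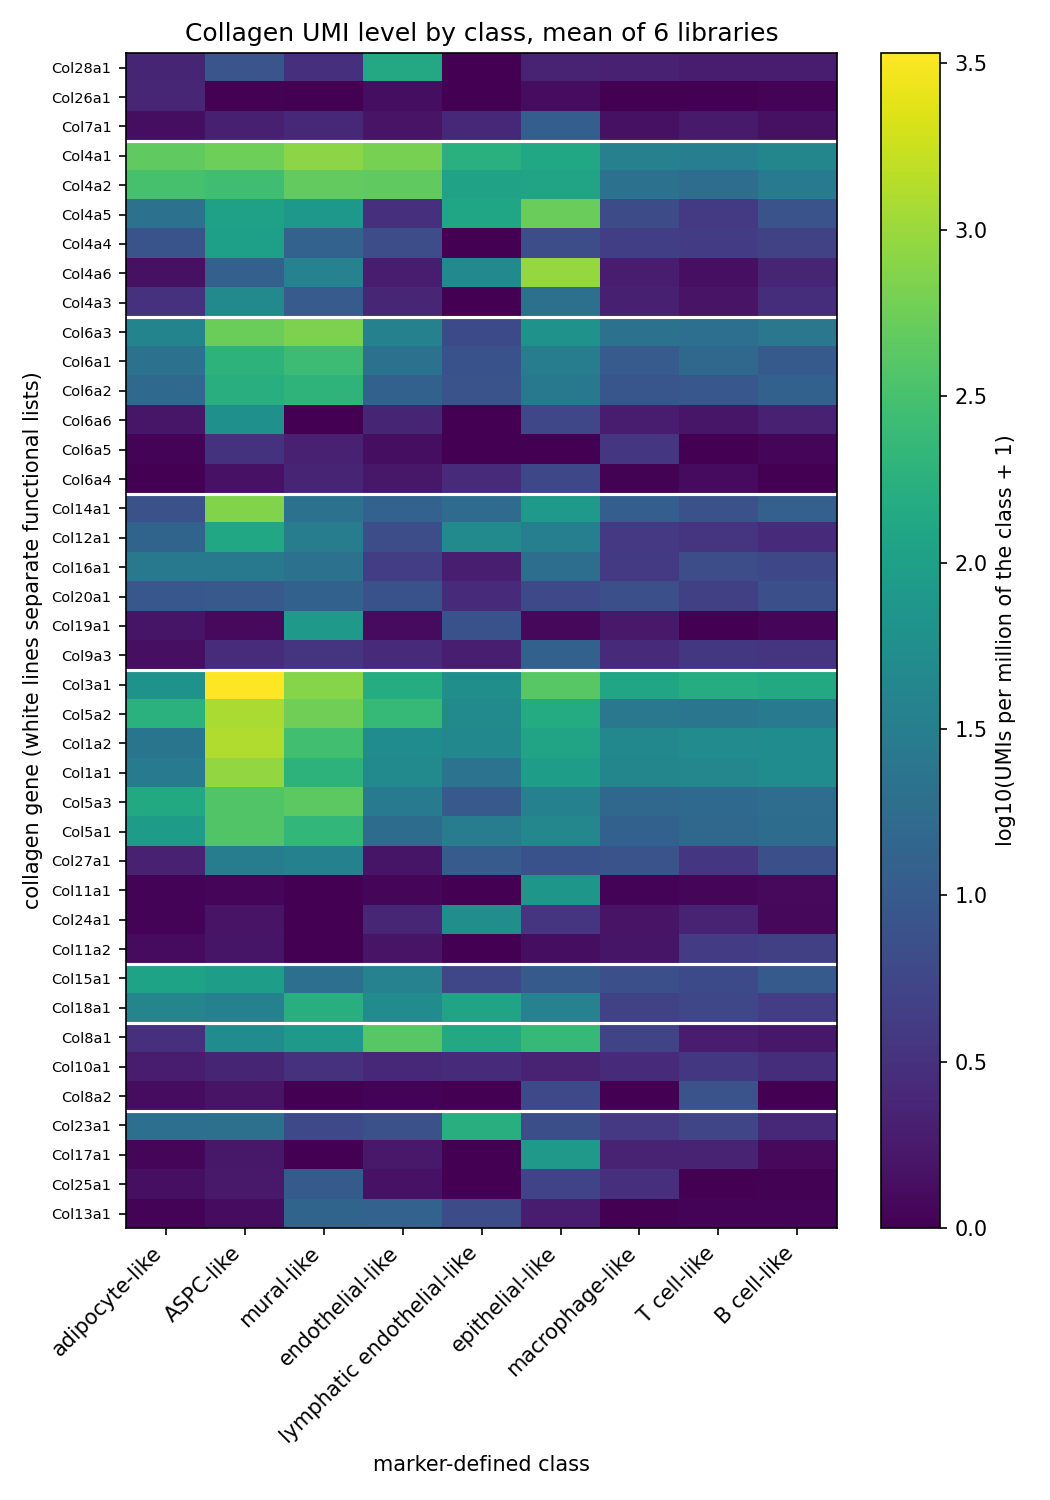
Rows are the collagen genes with at least 100 UMIs, grouped by functional list, columns are marker-defined classes, and colour is log10 of the mean CPM over 6 libraries plus 1. The brightest cell is Col3a1 in ASPC-like nuclei, at a mean of 3398 CPM, and the row of Col4a6 is brightest in epithelial-like nuclei.

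Most fibrillar collagen RNA was in ASPC-like nuclei. Col3a1, the chain of the type III homotrimer (chr1:45311538-45349706, plus strand, mm10), read 2368, 3398 and 4678 CPM there as the lowest, median and highest library. ASPC-like nuclei held 86.6% of its 148514 UMIs, with single libraries between 69.5% and 90.7%. The type I chains Col1a1 and Col1a2 form 1 trimer together. In ASPC-like nuclei Col1a1 read 647, 831 and 1279.7 and Col1a2 1089.6, 1257 and 1563 as the lowest, median and highest library. Both were higher in ASPC-like than in mural-like nuclei, the next class, in 6 of 6 libraries. In adipocyte-like nuclei, the mean was 63.7 for Col3a1, 22.6 for Col1a2 and 27.5 for Col1a1, under the B cell-like means of 139, 52.0 and 51.0. Flox control 3 stood apart: its adipocyte-like nuclei read 139, 60.1 and 69.6 for these 3 genes, above its own B cell-like nuclei at 81.6, 33.1 and 32.0. Without cluster c6, its adipocyte-like nuclei read 33.6, 11.3 and 15.4.

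Ratios of one collagen to another differed between the classes. The UMIs of Col5a2, a chain of the type V fibrils on which type I fibres form, were 0.367 ± 0.056 (SD, n = 6 libraries) times those of Col3a1 in ASPC-like nuclei. The ratio was 0.196 ± 0.0458 in B cell-like, 0.23 ± 0.0702 in macrophage-like and 0.185 ± 0.0621 in T cell-like nuclei. It was 3.5 ± 1.6 in adipocyte-like, 1.76 ± 0.585 in endothelial-like and 0.787 ± 0.231 in mural-like nuclei. Col4a1 was 0.167 ± 0.021 times Col3a1 in ASPC-like, 0.296 ± 0.057 in B cell-like and 0.302 ± 0.0599 in macrophage-like nuclei, but 9.24 ± 4.09 times in adipocyte-like nuclei. The 3 immune classes lay close to each other in the first ratio, and the adipocyte-like ratio lay far above them.

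With at least 100 UMIs in the class, a mean at least 3 times the B cell-like mean, and a level above the B cell-like level in every library, 25 of 26 collagens stood above the background in ASPC-like nuclei. The same rule gave 15 of 15 in mural-like, 11 of 26 in adipocyte-like, 7 of 16 in endothelial-like and 6 of 14 in epithelial-like nuclei. It gave 0 of 19 in macrophage-like and 0 of 4 in T cell-like nuclei. The B cell-like level set this rule, so the counts describe the data and were not tested. The 11 of adipocyte-like nuclei were the type IV chains Col4a1 and Col4a2, the type V chains Col5a1, Col5a2 and Col5a3, the multiplexins Col15a1 and Col18a1, the fibril-associated Col12a1 and Col16a1, the transmembrane Col23a1, and Col26a1.

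Adipocyte-like nuclei held most of the UMIs of the common basement membrane chains, though not at the highest CPM. Col4a1 and Col4a2 form the trimer found in nearly all basement membranes. Adipocyte-like nuclei held 66.5% of the 93774 Col4a1 UMIs and 71.0% of the 60611 Col4a2 UMIs, and these shares lay between 62.7% and 73.4% in every library. Such shares also follow the number and depth of the nuclei of a class. Of the UMIs of all genes, the adipocyte-like class held 31540313 of 48607348 in flox control 2 and 14592138 of 33427869 in knockout 1. In CPM, Col4a1 read 561, 399.6 and 394 in the 3 flox controls and 405, 483 and 546 in the 3 knockouts. The 2 groups overlapped, and the log2 fold change was 0.03 ± 0.20 (SE, edgeR adjusted p = 0.941). Col4a2 gave -0.09 ± 0.14 (edgeR adjusted p = 0.748). The mean Col4a1 level in CPM was 821 in mural-like, 650.1 in endothelial-like and 558 in ASPC-like nuclei, against 465 in adipocyte-like nuclei. Mural-like nuclei exceeded endothelial-like ones for Col4a1 in 5 of 6 and for Col4a2 in 4 of 6 libraries.

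The 3 type IV pairs had 3 distributions. The ratio of Col4a1 to Col4a2 was 1.46 ± 0.114 in adipocyte-like, 1.4 ± 0.0982 in endothelial-like, 1.72 ± 0.118 in mural-like and 2.02 ± 0.137 in ASPC-like nuclei (SD, n = 6). It was 1.14 ± 0.556 in epithelial-like nuclei. The ASPC-like libraries (1.82 to 2.21) lay above the endothelial-like ones (1.28 to 1.53). Col4a3 and Col4a4, chains known from the kidney filter, were found mainly in ASPC-like nuclei, with 80.2% of 2157 and 72.6% of 4919 UMIs. Their mean levels there were 46.6 and 97.1 CPM, against 9.25 and 11.7 in mural-like nuclei, the next class, and ASPC-like nuclei were higher in 6 of 6 libraries. The levels of Col4a5 and Col4a6 separated by class. The part of the distance between start sites in the distributions of the 3 pairs was not tested. The ratio of Col4a6 to Col4a5 was 1.77 ± 0.114 in epithelial-like, 0.47 ± 0.225 in mural-like, 0.11 ± 0.0191 in ASPC-like and 0.0329 ± 0.0225 in adipocyte-like nuclei. Epithelial-like nuclei held 81.5% of the 3351 Col4a6 UMIs, with single libraries between 22.6% and 90.5%, and read 535 to 1160 CPM. Their clusters were led by Ltf, Csn3 and Wfdc18, genes of the milk-secreting gland, by Cdh3 and by Prlr. They made up 0.143% to 4.35% of the nuclei of a library. Gene lengths and the position of poly-A priming differ between partners, so the ratios are compared between classes and not read as molecules per cell.

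**Figure D2:**
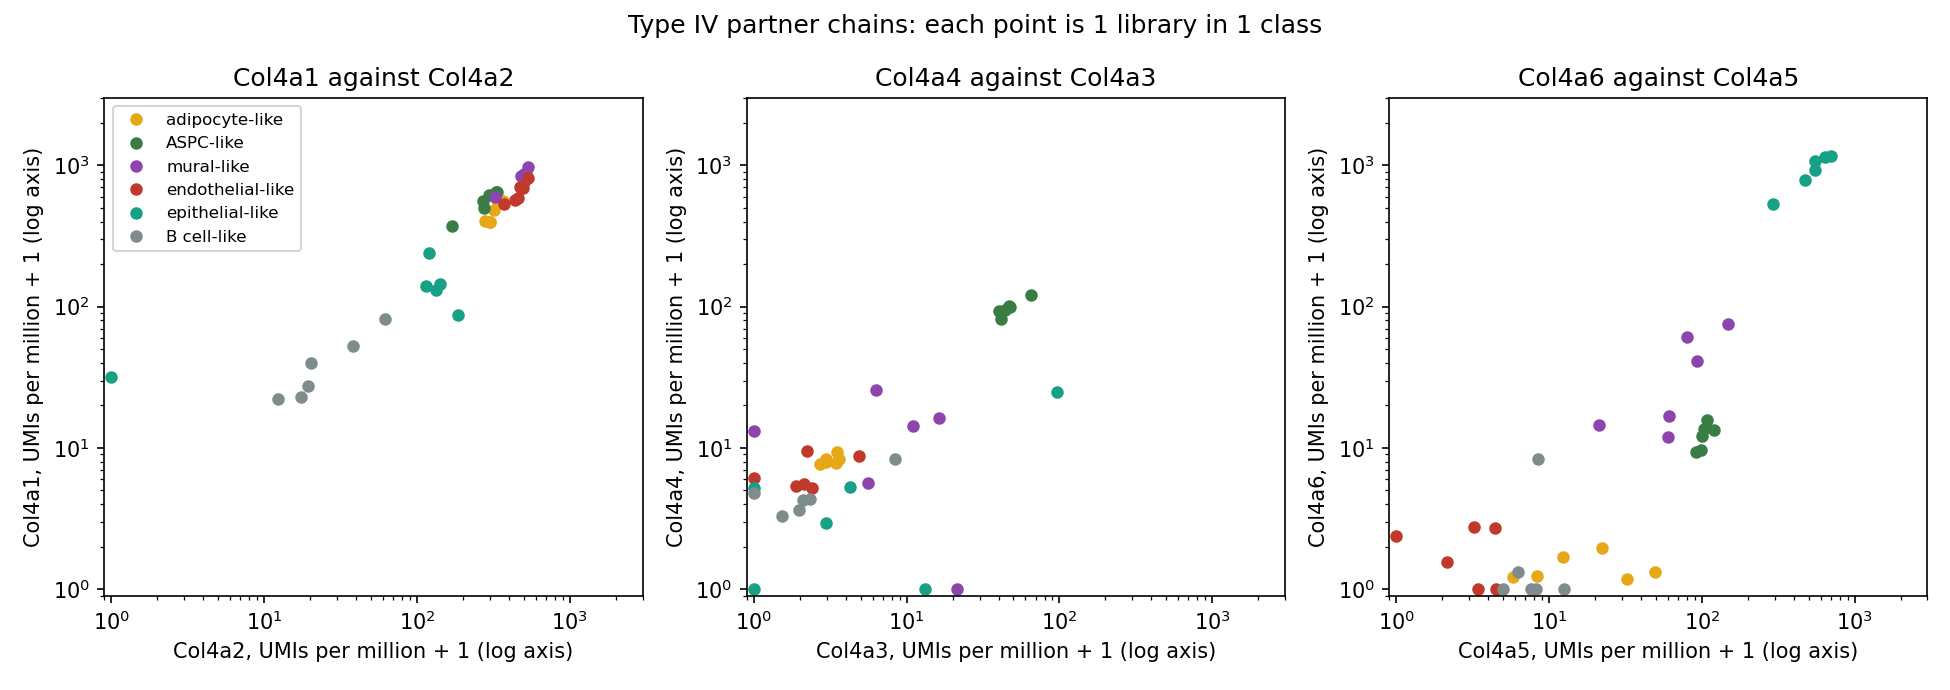
Each point is 1 library in 1 class, both axes are log-scaled CPM plus 1, and colours mark the class. Classes high in Col4a1 are also high in Col4a2, while the mean ratio of Col4a6 to Col4a5 is 1.77 in epithelial-like and 0.11 in ASPC-like nuclei.

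Type VI and fibril-associated collagens were shared by stroma and mural cells to different degrees. Col6a3 read 545 CPM in ASPC-like and 692 in mural-like nuclei on average, and mural-like nuclei were higher in 5 of 6 libraries. Col6a1 (194 and 263) and Col6a2 (165 and 194) had the same order in 4 and 3 of 6 libraries, so for Col6a2 the classes could not be ordered. Col6a6, an alternative to the third chain of type VI, had 91.6% of its 2365 UMIs in ASPC-like nuclei, at 58.0 CPM against 2.2 in monocyte-like nuclei, the next class. Col14a1, which sits on the surface of fibrils, had 92.5% of its 28056 UMIs in ASPC-like nuclei, at 721 CPM against 20.5 in mural-like nuclei. Col19a1, a rare chain of basement membrane zones, read 77.1 CPM in mural-like nuclei against 0.743 in macrophage-like nuclei, the next class, and mural-like nuclei were higher in 6 of 6 libraries.

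Within the ASPC-like class, the 3 clusters carried different collagens. These levels describe clusters of the same nuclei and were not tested. Cluster c1, led by Sema3e and Pi16 (a marker of fibroblast progenitors), had the highest Col14a1, at 1166 CPM against 183 in c5 and 409 in c11, and the highest Col12a1, at 218 against 30.2 and 34.0. Cluster c5, led by Pde11a and Bmper, had the highest mean Col3a1 (5542 against 4246 in c11 and 1640 in c1), Col4a1 (1183 against 643 and 86.6), Col6a3 (1070 against 563 and 158) and Col15a1 (213 against 109 and 5.04). For Col3a1, c5 (4101 to 7855) and c11 (3062 to 5295) overlapped across libraries. For Col14a1 the order of c1 over c5 held in every library, where c1 lay between 864 and 1388 and c5 between 134 and 234. For Col4a1 c5 was the higher in every library, between 975 and 1380 with c1 between 58.4 and 118. Cluster c11, led by C7 and Gdf10, had the highest mean Col4a4, at 214 against 142 in c5 and 39.3 in c1, and the highest mean Col4a3, at 108.5 against 75.6 and 11.9. Across libraries c11 and c5 overlapped for Col4a4 (139.1 to 264.5 and 114.9 to 170.6) and for Col4a3 (77.9 to 151.9 and 55.6 to 100.4).

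The endothelial-like clusters also carried different collagens. Col8a1, a short-chain collagen of subendothelial networks, had 52% of its 7041 UMIs in endothelial-like nuclei and was highest in that class in 6 of 6 libraries. Cluster c14, led by Gja5, Bmx and Sema3g, genes known from arteries, read 1427 CPM (922.5 to 1689 over the 6 libraries), against 137 in c7 and 66.9 in c20, which was led by Selp and Vwf. Col5a2 was likewise highest in c14, at 893 against 30.7 in c7 and 158 in c20. Col28a1, a von Willebrand factor A domain collagen, was highest in c7, led by the capillary genes Car4 and Gpihbp1, at 186 CPM (103 to 314) against 20.1 in c14 and 6.51 in c20. Endothelial-like nuclei held 66.4% of the 1976 Col28a1 UMIs. Col13a1, a transmembrane collagen, read 18.9 CPM in c7 and 0.545 in c14.

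Among adipocyte-like clusters, Col15a1, which lies between basement membranes and fibrils, was highest in c8. It read 240.1 CPM in c8 (led by Mageb18 and Ptchd4), 76.6 in c2 (led by Cfd, Nnat and Pck1) and 22.6 in c4 (led by Gabrr2, Plagl1 and Ptger3). The lowest library of c8, at 200.3, was above the highest of c2, at 118.5, and the lowest of c2, at 33.9, was under the highest of c4, at 37.5. Cluster c6 averaged 183, with libraries from 81.6 to 315, and so overlapped both c8 and c2. Col16a1, a fibril-associated chain, read 49.3, 1.98 and 25.5 in c8, c2 and c4. These clusters also differed in share: c2 made up 21.4% ± 5.31 (SD, n = 3) of adipocyte-like nuclei in flox control and 60.2% ± 5.87 in knockout libraries, and c4 34.9% ± 18.1 and 20.5% ± 3.11.

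The comparison of knockout with flox control asks whether collagen RNA differs per class. In adipocyte-like nuclei, the level of Col4a5 averaged 33.5 CPM in flox controls and 7.83 in knockouts, and that of Col5a2 222 and 141. However, 0 of the 30 collagens tested passed edgeR's quasi-likelihood test at an adjusted p under 0.05. The test called 0.166% of all 16267 genes there. In ASPC-like nuclei 0 of 28 collagens passed, beside 0.444% of all 13748 genes, and in endothelial-like nuclei 0 of 17, beside 0.105% of 10496. An unadjusted p under 0.05 was reached by 5, 5 and 3 collagens in these classes, beside 17.7%, 11.3% and 8.28% of all genes. DESeq2 called 2 (Col4a5 and Col5a2), 2 (Col6a6 and Col8a1) and 1 (Col28a1). The share of all genes called by DESeq2 is not given, so its counts here and below have no such share to be read against. In mural-like nuclei 0 of 17 and in macrophage-like nuclei 0 of 20 passed, beside 0% and 0.339% of all genes. An unadjusted p under 0.05 was reached by 2 collagens in each, beside 5.52% and 14.8% of all genes. In mural-like nuclei Col8a1 read 58.4, 52.5 and 45.1 in flox controls and 74.1, 115 and 139 in knockouts, without overlap (log2 fold change 1.10 ± 0.30, edgeR adjusted p = 0.715). Col19a1, the other, read 113, 91.9 and 115 against 13.5, 36.3 and 92.5, with overlap (-1.06 ± 0.43, edgeR adjusted p = 0.847). Over B cell-like, T cell-like, NK cell-like, dendritic-like and monocyte-like nuclei, 0 collagens passed as well. An unadjusted p under 0.05 was reached by 3 of 11 in B cell-like, 2 of 5 in T cell-like and 1 of 1 in dendritic-like nuclei, beside 9.43%, 16.3% and 8.66% of all genes. It was reached by 0 of 1 in NK cell-like and 0 of 1 in monocyte-like nuclei, beside 5.91% and 4.67%. DESeq2 was not run for these classes or for the mural-like and macrophage-like ones. The share of all genes called by edgeR was 0.226% of all genes in B cell-like, 3.75% in T cell-like and 0% in the NK cell-like, dendritic-like and monocyte-like classes. The p-values measure only the spread between these libraries, which for the 3 mice per genotype holds both animal and technical differences.

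In adipocyte-like and ASPC-like nuclei most log2 fold changes were negative although 0 passed. Of the 30 collagens tested in adipocyte-like nuclei, 24 had a negative log2 fold change, and their median was -0.325 beside -0.0025 over all genes tested. Inside the adipocyte states the count was 14 of 20 in c2 (median -0.252), 7 of 21 in c4 (median 0.0933) and 10 of 22 in c8 (median 0.0216). State c2 took 21.4% of the nuclei of the class in flox control and 60.2% in knockout libraries, and 15.5% and 42.1% of its UMIs. The class values are sums of UMIs. The part of these shares in the class median was not tested.

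In ASPC-like nuclei 22 of 28 were negative, with a median of -0.21 beside 0.0055. In endothelial-like nuclei 13 of 17 were negative, with a median of -0.19 beside 0.0077. In mural-like nuclei 6 of 17 were negative, with a median of 0.0813. Among immune nuclei, the median was -0.545 over 11 collagens in B cell-like, -1.03 over 5 in T cell-like and -0.395 over 20 in macrophage-like nuclei. Negative changes were 10 of 11, 5 of 5 and 18 of 20 in these. The 1 collagen tested was at -1.23 in dendritic-like, 0.996 in NK cell-like and 0.116 in monocyte-like nuclei. The part of free RNA in the adipocyte-like, ASPC-like and endothelial-like medians was not tested. The fibrillar list was negative for 7 of 7 members tested in adipocyte-like nuclei (median -0.71) and 7 of 7 in ASPC-like nuclei (median -0.23), again with 0 called. The type IV list had 3 of 5 and 4 of 6 negative, with medians of -0.09 and -0.23.

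**Figure D3:**
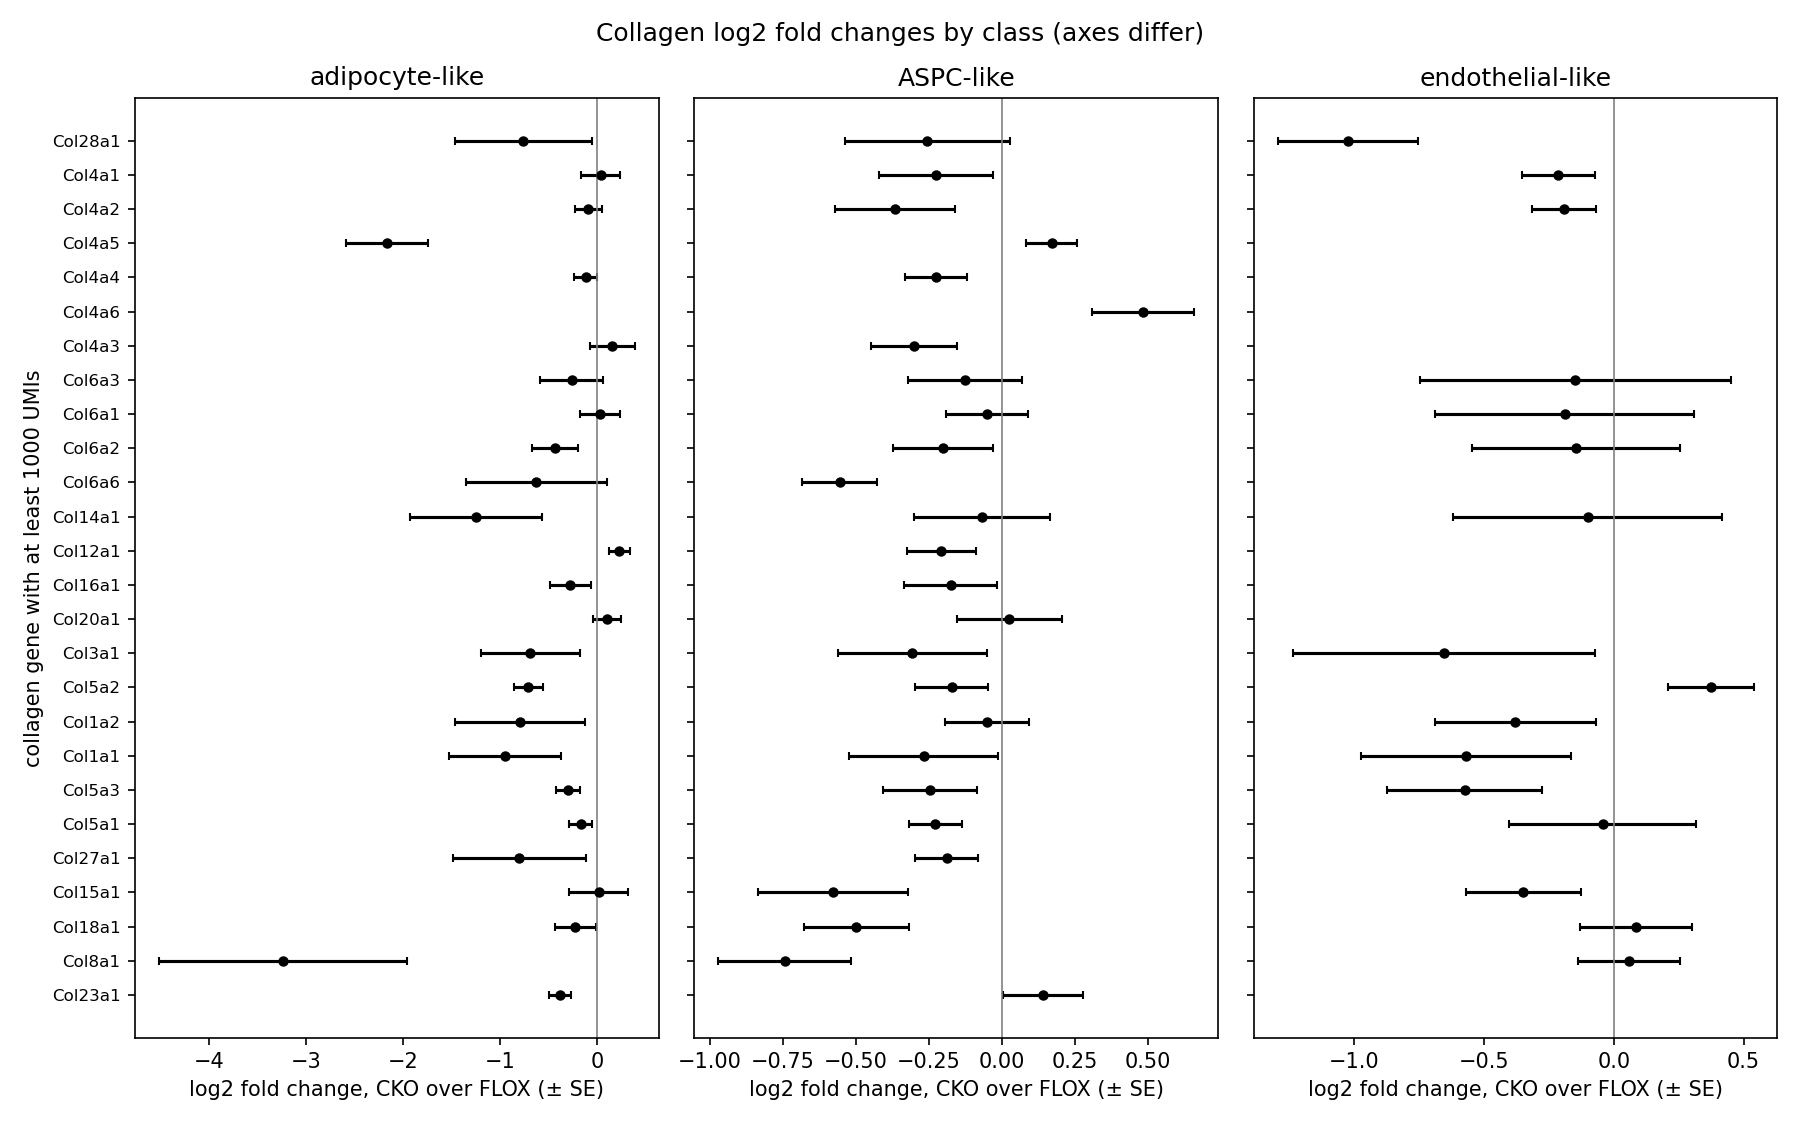
Each point is the log2 fold change of 1 collagen gene, knockout (CKO) over flox control (FLOX), with its standard error, in 3 classes whose horizontal axes differ. Most points lie left of 0, Col4a5 in adipocyte-like nuclei is at -2.16, and none passed the adjusted threshold.

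For the abundant chains the intervals bound the size of a change. In ASPC-like nuclei the log2 fold change of Col1a2 was -0.05 with a 95% interval from -0.37 to 0.27, that of Col1a1 -0.27 (-0.88 to 0.35) and that of Col3a1 -0.31 (-0.91 to 0.30). Col6a1, a core chain of type VI, gave -0.05 (-0.37 to 0.27). In adipocyte-like nuclei the interval of Col4a1 ran from -0.44 to 0.51. Each interval holds 0 and changes in both directions.

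Col4a5, a basement membrane chain (chrX:141475385-141689234, plus strand, mm10), had the smallest adjusted p among collagens in adipocyte-like nuclei. It read 31.3, 48.0 and 21.1 CPM in flox controls 1 to 3, and 11.4, 4.80 and 7.33 in knockouts 1 to 3. All 3 knockout values lay under all 3 flox control values, as they did for 3 of the 30 collagens tested and for 9.55% of all genes. The log2 fold change was -2.16 ± 0.42 (SE), with an edgeR adjusted p of 0.112. Without cluster c6 it was -2.26 (edgeR adjusted p = 0.0368, chosen after seeing the data), among nuclei of 3000 to 8000 UMIs -2.37 (edgeR adjusted p = 0.0231), and without flox control 3 -2.43 (edgeR adjusted p = 0.0392). DESeq2 gave an adjusted p of 3.31e-06. The range over all 16 alternatives was -2.52 to -1.80, with adjusted p from 3.31e-06 to 0.34.

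The direction of Col4a5 held inside each of the 3 adipocyte states tested, c2, c4 and c8. Cluster c6, with 19 nuclei in knockout 2, was not tested, and its libraries ran from 18.6 to 194.7 CPM. In c2 the flox controls read 10.4, 12.9 and 6.52 and the knockouts 3.03, 1.88 and 2.91 CPM. In c4 they read 45.3, 77.2 and 35.3 against 22.1, 11.0 and 11.0, and in c8 17.3, 25.9 and 15.6 against 9.47, 3.96 and 3.73. The groups did not overlap in any of the 3 states, and all knockouts lay under all flox controls for 7.54%, 8% and 6.77% of all genes there. The log2 fold changes were -1.96 ± 0.32, -1.88 ± 0.37 and -1.80 ± 0.35, with edgeR adjusted p of 0.0604, 0.0968 and 0.147. In these states 0 of 20, 21 and 22 collagens tested passed, beside 0.0237%, 0.445% and 0.173% of all genes. An unadjusted p under 0.05 was reached by 6, 4 and 4, beside 14.1%, 13.6% and 11.5% of all genes, and DESeq2 was not run for the states. Without knockout 1, Col4a5 passed in c2 (edgeR adjusted p = 0.0181) and c8 (edgeR adjusted p = 0.025), and without flox control 3 it passed in c2 (edgeR adjusted p = 0.0333).

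The knockout levels of Col4a5 in adipocyte-like nuclei lay close to those of B cell-like nuclei, which were shallower. B cell-like nuclei read 11.5, 7.41 and 6.61 CPM in the flox controls and 7.18, 3.98 and 5.27 in the knockouts, and knockouts 1 to 3 read 11.4, 4.80 and 7.33 in adipocyte-like nuclei. The B cell-like values rest on few nuclei with a Col4a5 UMI: 3, 1 and 6 in the flox controls and 34, 5 and 13 in the knockouts. At least 1 Col4a5 UMI was found in 9.79% of 9767 flox control adipocyte-like nuclei (exact 95% binomial interval 9.21% to 10.4%) and in 3.18% of 6360 knockout ones (2.76% to 3.64%), with median depths of 6820 and 5960 UMIs. By library the shares were 13%, 13.5% and 5.78% in flox controls 1 to 3 and 5.13%, 1.98% and 3.39% in knockouts 1 to 3. The intervals of flox control 3 (5.12% to 6.5%) and knockout 1 (4.01% to 6.44%) overlapped, at median depths of 2280 and 8610 UMIs. After thinning each nucleus to 1000 UMIs, which left out 1108 and 92 shallower nuclei, the shares were 2.36% and 0.718%. By library the thinned shares were 2.29%, 3.62% and 2.28% in flox controls 1 to 3 and 0.819%, 0.307% and 1.08% in knockouts 1 to 3. B cell-like nuclei gave 1.33% and 0.779% unthinned (median depths 1610 and 1350) and 0.795% and 0.519% thinned. The intervals cover counting error only, since nuclei of 1 library share their source.

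Marker genes of other cell types were read in the same adipocyte-like nuclei. The 10 ASPC markers summed to 1424 to 1887 CPM in flox control and 1412 to 1961 in knockout adipocyte-like nuclei, with 0 of 10 lower in all knockouts and 0 at 0. The 6 epithelial markers summed to 903 to 1009 and 766 to 873, with 1 of 6 lower in all knockouts and 0 of 6 at 0. The 8 mural markers summed to 118 to 129 and 74.9 to 112, with 4 of 8 lower in all knockouts and 0 at 0. Their part in the Col4a5 values was not tested. Col4a6, the partner that went with Col4a5 in epithelial-like nuclei, had 58 UMIs in adipocyte-like nuclei against 3323 of Col4a5.

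In ASPC-like nuclei the levels of Col4a5 were several times higher. The flox controls read 99.3, 97.4 and 90.7 and the knockouts 102, 107 and 118 CPM, so all knockouts lay above all flox controls (log2 fold change 0.17 ± 0.09, edgeR adjusted p = 0.514). The difference between the changes in ASPC-like and adipocyte-like nuclei was 2.26 ± 0.45 on the log2 scale, and it did not pass (edgeR adjusted p = 0.191). In that test 0 of 31 collagens passed, beside 0.00608% of all 16441 genes, and 4 had an unadjusted p under 0.05, beside 11.2% of all genes. No DESeq2 fit of this difference was run.

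Col5a2 (chr1:45374321-45503282, minus strand, mm10) read 243, 227 and 196 CPM in the flox controls and 121, 160.0 and 141 in the knockouts of the adipocyte-like class. The groups did not overlap. Its log2 fold change was -0.71 ± 0.15 (edgeR adjusted p = 0.118), without flox control 3 it passed (-0.82, edgeR adjusted p = 0.0489), and without c6 it did not (-0.69, edgeR adjusted p = 0.0513). The B cell-like mean was 26.2. The change in ASPC-like minus that in adipocyte-like nuclei was 0.49 ± 0.10 (edgeR adjusted p = 0.157). Within c2, c4 and c8 the log2 fold changes were -0.54, -0.44 and -0.65, with edgeR adjusted p of 0.19, 0.126 and 0.201; the groups overlapped in c2 only. Col23a1, a transmembrane collagen and the third member lower in all knockouts, read 22.8, 19.9 and 19.6 against 17.3, 16.6 and 15.3 (log2 fold change -0.39 ± 0.11, edgeR adjusted p = 0.173). Col8a1 read 0.747, 0.444 and 9.96 against 0.274, 0.508 and 0.358 (log2 fold change -3.24 ± 1.28, edgeR adjusted p = 0.263), so flox control 3 stood far above the other 5 libraries. Endothelial markers summed to 23.6 to 258 CPM in flox control and 28.9 to 38.1 in knockout adipocyte-like nuclei. Without cluster c6, Col8a1 read 0.287, 0.416 and 0.423 against 0.279, 0.283 and 0.307, so no library stood apart and the groups overlapped. Col5a3, the fifth with an unadjusted p under 0.05, gave -0.30 ± 0.12 with overlapping groups (edgeR adjusted p = 0.278).

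**Figure D4:**
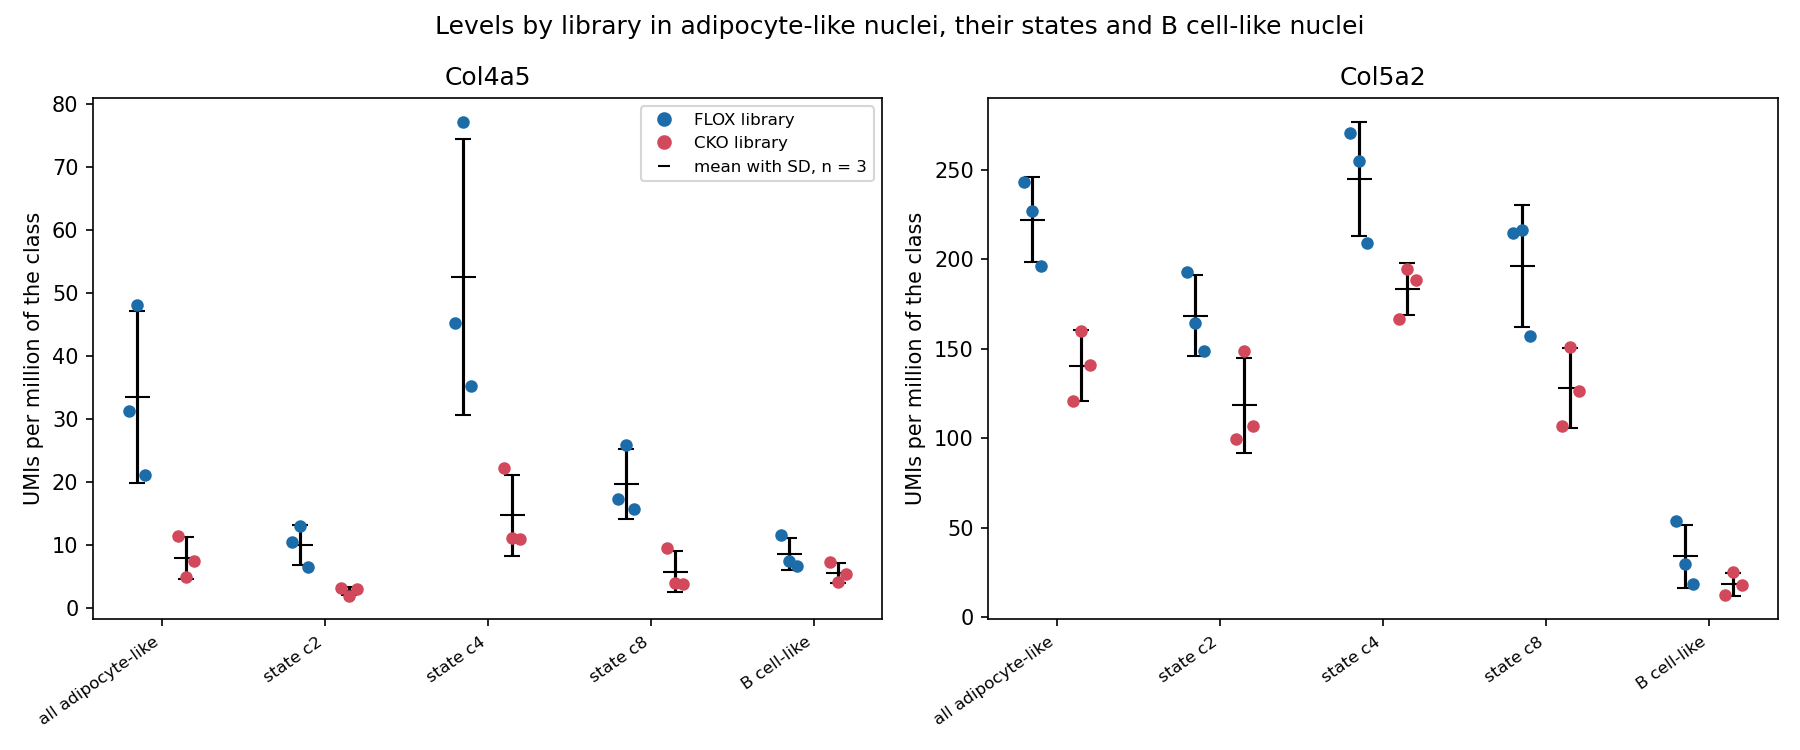
Points are libraries (blue FLOX, red CKO) with the mean and SD of 3, for Col4a5 and Col5a2, in CPM. The Col4a5 knockout points (4.80 to 11.4) reach down to the B cell-like points, while the Col5a2 knockout points (121 to 160.0) lie above the B cell-like points.

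In ASPC-like nuclei the members with an unadjusted p under 0.05 were Col6a6, Col8a1, Col18a1, Col5a1 and Col4a6. Col6a6 read 74.5, 75.5 and 55.7 CPM in flox controls and 50.3, 50.2 and 41.6 in knockouts, with no overlap. Its log2 fold change was -0.56 ± 0.13 (edgeR adjusted p = 0.0997). Here 4 collagens were lower and 3 higher in all knockouts, of 28, beside 7.8% and 8.61% of all genes. The DESeq2 adjusted p was 0.0454 for Col6a6 and 0.0299 for Col8a1. Col8a1 (chr16:57624258-57754737, minus strand, mm10) read 47.3, 86.1 and 60.6 against 38.7, 46.0 and 32.1 (log2 fold change -0.74 ± 0.23, edgeR adjusted p = 0.281). For Col8a1 all 3 knockouts lay under all 3 flox controls, the highest at 46.0 and the lowest at 47.3. Col18a1, the precursor of endostatin, read 43.0, 39.6 and 37.1 against 20.8, 37.0 and 27.3 (-0.50 ± 0.18, edgeR adjusted p = 0.339). Col4a6 read 11.1, 8.60 and 8.32 against 12.6, 14.7 and 12.4 (0.48 ± 0.18, edgeR adjusted p = 0.329). Neither gene's groups overlapped, while those of Col5a1 did (-0.23 ± 0.09, edgeR adjusted p = 0.37). Macrophage markers summed to 596 to 954 CPM in the flox control and 382 to 640.3 in the knockout ASPC-like nuclei, with 6 of 10 lower in all knockouts and 0 at 0. Mural markers summed to 232 to 247 and 170 to 213 there, with 2 of 8 lower in all knockouts and 0 at 0, and mural-like nuclei had mean levels of 170.4 CPM for Col18a1 and 80.6 for Col8a1. The part of either list in these values was not tested.

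In endothelial-like nuclei Col8a1 had overlapping groups. It read 337, 425 and 425 CPM in flox controls and 446, 523 and 283 in knockouts, with the lowest and the 2 highest values in the knockouts (log2 fold change 0.06 ± 0.20, edgeR adjusted p = 0.974). The change of Col8a1 differed between these classes: endothelial-like minus ASPC-like was 0.75 ± 0.15 on the log2 scale (edgeR adjusted p = 0.0417), the 1 collagen of 28 to pass, beside 0.265% of all 13943 genes. DESeq2 was not run for it. The call was lost without any 1 of 5 of the 6 libraries (edgeR adjusted p from 0.0583 to 0.168) and kept without flox control 1 (edgeR adjusted p = 0.0402). Within endothelial-like nuclei, c14, where Col8a1 was highest, made up 16.8% ± 1.28 (SD, n = 3) of flox control and 21.5% ± 3.34 of knockout nuclei. The part of that share in the difference was not tested.

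Col28a1 and Col13a1 had log2 fold changes of opposite sign in endothelial-like nuclei, and neither passed the reported test. Col28a1 (chr6:7997808-8192617, minus strand, mm10) read 151, 235 and 141 CPM in flox controls and 123, 67.8 and 76.5 in knockouts, with no overlap. Its log2 fold change was -1.02 ± 0.27 (edgeR adjusted p = 0.295, DESeq2 adjusted p = 0.0157), and within c7 alone it was -0.88 ± 0.24 (edgeR adjusted p = 0.57). Col13a1 read 1.73, 7.40 and 4.85 against 8.38, 28.0 and 21.9, again with no overlap, from 28 and 57 UMIs in all (log2 fold change 2.13 ± 0.50, edgeR adjusted p = 0.177, DESeq2 adjusted p = 0.0709). Col13a1 passed with the library number as a block (2.03, edgeR adjusted p = 0.038) and with no filter on low counts (2.10, edgeR adjusted p = 5.64e-05), 2 of 14 alternatives. Of 17 collagens, 1 was lower and 1 higher in all knockouts, beside 6.04% and 7.68% of all genes. Col5a2, the third with an unadjusted p under 0.05, had a positive log2 fold change and overlapping groups. Over 14 alternatives the change of Col5a2 ran from 0.231 to 0.555 (edgeR or DESeq2 adjusted p from 0.125 to 0.967), and 0 passed. A UMI of Col13a1 was present in 0.335% of 2689 and 1.32% of 1292 endothelial-like nuclei, against 0 of 752 (which allows up to 0.399%) and 0.03% of 6677 B cell-like nuclei. By library, the endothelial-like nuclei with a Col13a1 UMI were 3, 2 and 4 in flox controls 1 to 3 and 5, 10 and 2 in knockouts 1 to 3. The share in knockout 3, 0.515%, lay near that in flox control 3, 0.489%, so the Col13a1 levels rest on few nuclei. Median depths were 2040 and 1790 UMIs in endothelial-like and 1610 and 1350 in B cell-like nuclei. In the same endothelial-like nuclei, macrophage markers summed to 852 to 1298 CPM in flox control and 699.5 to 802 in knockout libraries, with 3 of 10 lower in all knockouts. Their part in these values was not tested.

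**Figure D5:**
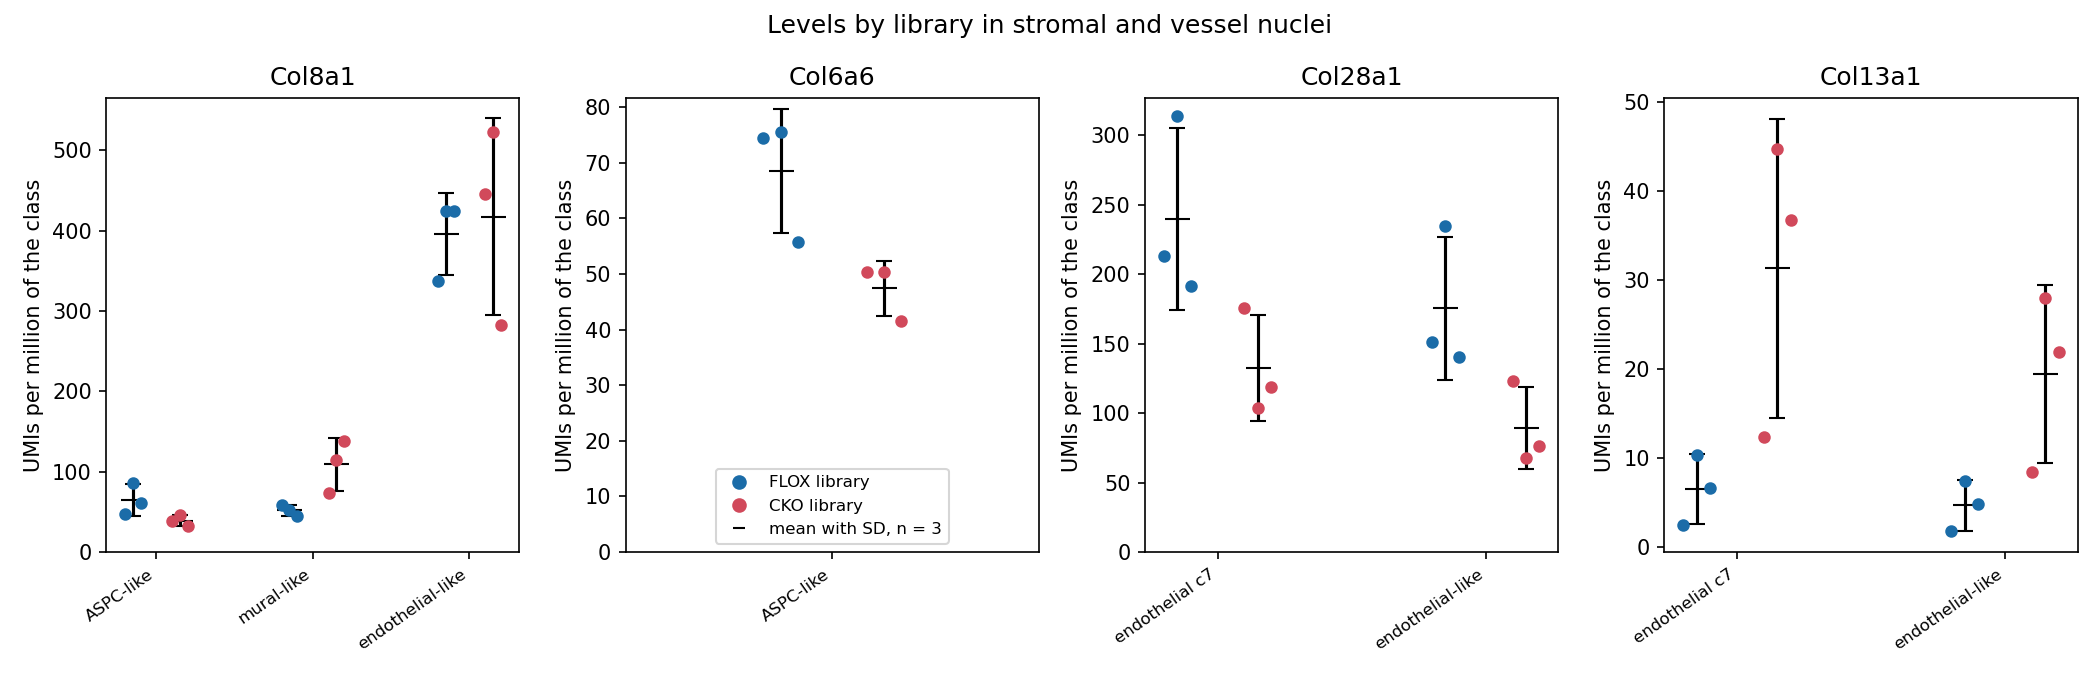
Points are libraries (blue FLOX, red CKO) with the mean and SD of 3, in CPM of the class or cluster named. The groups do not overlap for Col8a1 and Col6a6 in ASPC-like nuclei or for Col28a1 and Col13a1 in endothelial-like nuclei, and overlap for Col8a1 in endothelial-like nuclei.

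Summed over all nuclei of a library, 0 of 40 collagens passed edgeR's test, beside 0.0414% of all 19310 genes. An unadjusted p under 0.05 was reached by 13 collagens, beside 28.2% of all genes, and DESeq2 called 8. A fit with the library number as a block called 2, Col28a1 lower (log2 fold change -1.24, edgeR adjusted p = 0.0318) and Col24a1 higher (1.54, edgeR adjusted p = 0.0432). In this summed RNA, fewer cells of a type and less RNA per cell cannot be told apart. Without knockout 2 the edgeR count was 9, of which 7 were lower, and the share of all genes called in that fit is not given. Of the 40, 4 were lower and 8 higher in all knockouts, beside 10.7% and 25.5% of all genes. Col24a1 overlaps another gene, D530037P16Rik, on the same strand, so its counts are uncertain.

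Col28a1 read 9.75, 10.5 and 12.1 CPM of the whole tissue in flox controls and 4.73, 4.10 and 5.83 in knockouts, with no overlap (log2 fold change -1.23 ± 0.17, edgeR adjusted p = 0.0596). Endothelial-like nuclei, which held most of its UMIs, made up 9.7% of flox control and 4.55% of knockout libraries on average. Kept to adipocyte-like, ASPC-like, endothelial-like, mural-like and macrophage-like nuclei, an alternative chosen after seeing the data, it passed (-1.10, edgeR adjusted p = 0.048). Col6a4 read 0.124, 0.0206 and 0.245 against 2.39, 0.693 and 0.985 (log2 fold change 3.31 ± 0.79, edgeR adjusted p = 0.0665), from 17 and 138 UMIs. Unnamed nuclei held 71.0% of these, and cluster c24, whose leading genes include Cxcl13 and Ccl19, chemokine genes of lymphoid stroma, held 3 in flox control and 105 in knockout libraries. Cluster c24 itself had 0, 0 and 33 nuclei in flox controls 1 to 3 and 142, 27 and 76 in knockouts 1 to 3. Col6a4 overlaps an antisense gene, as do Col5a1, Col12a1, Col14a1, Col15a1, Col18a1 and the Col4a1 and Col4a2 pair, and whether strand was used in the counting is not given in the sources used here.

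Genes that act on collagen were looked at as 5 lists of 82 genes: hydroxylation and secretion, propeptide removal and crosslinking, fibril-binding partners, receptors, and breakdown. In adipocyte-like nuclei 0 of 71 tested and in endothelial-like nuclei 0 of 61 tested passed edgeR's test, with 16 and 10 at an unadjusted p under 0.05, beside 17.7% and 8.28% of all genes, and DESeq2 called 6 and 1. In ASPC-like nuclei 1 of 72 passed, beside 0.444% of all genes, with 16 at an unadjusted p under 0.05, beside 11.3%. DESeq2 called 4 there, Adgrg6 and, named after their values were seen, Adamts2, Cd36 and Tll1. Adgrg6, an adhesion receptor that binds type IV collagen, rose from 32.6, 42.3 and 42.5 to 68.0, 61.9 and 71.5 CPM (log2 fold change 0.77 ± 0.12, edgeR adjusted p = 0.0298). All 3 knockouts lay above all 3 flox controls. Over the whole tissue, Itga1, the alpha chain of a receptor for type IV and type I collagen, fell from 428, 365 and 420.4 to 228, 219 and 217 CPM (log2 fold change -0.96 ± 0.08, edgeR adjusted p = 0.0397). It was the 1 gene of the 78 tested there to pass, beside 0.0414% of all genes, and it was singled out after its values were seen. There 21 of the 78 had an unadjusted p under 0.05, beside 28.2% of all genes, and DESeq2 called 14. In adipocyte-like nuclei the median log2 fold change was -0.038 for hydroxylation and secretion (12 of 19 negative), -0.615 for propeptide removal and crosslinking (12 of 13), -0.178 for fibril-binding partners (12 of 17), -0.604 for receptors (9 of 13) and -0.565 for breakdown (8 of 9), beside -0.0025 over all genes. In ASPC-like nuclei the medians of the 5 lists ran from -0.148 (receptors) to -0.037 (fibril-binding partners), beside 0.0055.

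There were 3 collagens with too few UMIs for any test. Of the 44 members, 18 had under 1000 UMIs and 4 under 100, with a range from 18 to 148514. Several rare ones had most of their UMIs in 1 class. Col17a1, the hemidesmosome collagen, had 73.7% of its 403 UMIs in epithelial-like nuclei, and Col11a1, a cartilage-type fibril chain, had 61.2% of 268 there and 28.0% in unnamed nuclei. Col26a1 had 76.7% of its 253 UMIs in adipocyte-like nuclei at 1.36 CPM, higher than in the other ordered classes in 6 of 6 libraries. Unnamed nuclei, which are not ordered, read 1.57 to 77.6 CPM. Col26a1 overlaps another gene, Gm20485, on the same strand, so its counts are uncertain. These values rest on few UMIs.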

How the data were processed

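The deposited values are UMI counts per gene and nucleus, 1 filtered matrix per library, made by the authors; the submitters' processing notes name Cell Ranger 7.1, mm10 and GRCh38, and whether introns were counted is not given in the sources used here. Gene positions are from GENCODE vM21 on mm10. Barcodes with under 500 genes or over 5% mitochondrial UMIs were removed, as were the top-scoring doublets at 0.8% per 1000 barcodes (scanpy 1.11.5 and its Scrublet). Total UMIs per library were 38857282 to 55342903. Clusters came from 3000 variable genes without collagens, 40 principal components and Leiden at resolution 1 (leidenalg 0.10.2), giving 38 clusters. A cluster was named where at least 3 and at least 50% of a list's markers were 2-fold higher, unless an unrelated list also reached 50%; that limit was raised from 33%, and neutrophil markers were counted as related to myeloid ones, after the clusters were seen. Counts were summed per library and class with at least 20 nuclei in every library and tested with edgeR 4.0.16 (TMM, filterByExpr, robust quasi-likelihood, Benjamini-Hochberg over all genes; R 4.3.3), and differences between classes with the library as a block. DESeq2 1.42.0, another normalization, no filter, leaving out each library, other filters and other classes were alternatives. A level is in CPM, UMIs per 1000000 UMIs of a class; RefSeq promoters matched 35 of 44 members. The scripts were tested on simulated data, with 1 dispersion for all genes. The edgeR test found 27% of 2-fold changes in adipocyte-like, 92% in ASPC-like and 88% in endothelial-like nuclei, and 40% in whole tissue. For 1.5-fold changes it found 2%, 56%, 34% and 2%. A count of 0 therefore says less about adipocyte-like nuclei and whole tissue than about the other 2.

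The named genes were the collagens passing a test, the 2 with most UMIs of each functional list, partner chains and those with 50% of UMIs or more in 1 non-stromal class; pathway genes are named only where called. Other genes named were added after their values were seen. The members and lists were chosen with earlier results of these data known. For the whole tissue, deviations of same-numbered libraries had r = 0.41, 0.136 and 0.117, and those of differently numbered ones -0.367 to 0.257; every same-number r was over 0.1, so the blocked fit is printed beside it. The replicate numbers are those of the library titles. Intervals of fold changes use the t distribution on edgeR's residual degrees of freedom. Binomial intervals and the limit for a count of 0 (3 counts) cover counting error only.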

Additional observations from a re-analysis of the deposited data

Results flagged for a closer look

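Col8a1, a short-chain network collagen, was the 1 collagen whose knockout-over-control change differed between cell classes in a direct test of that difference. The change in endothelial-like nuclei minus that in ASPC-like nuclei was 0.75 ± 0.15 on the log2 scale (edgeR quasi-likelihood test with the library as a block, adjusted p = 0.0417). Over 7 alternatives the difference ran from 0.59 to 0.866 (edgeR adjusted p from 0.0402 to 0.168), and only 2 passed. Col8a1 was lower in 3 of 3 knockout libraries than in every flox control in ASPC-like nuclei, and the groups overlapped in endothelial-like nuclei.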

How the results depend on the processing

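The counts of collagens passing the test were 0 in the reported fits of the classes, the adipocyte states and the whole tissue. In adipocyte-like nuclei the count was 2 with DESeq2, 1 among nuclei of 3000 to 8000 UMIs, 1 without cluster c6, and 0 to 2 when each library was left out, the 2 without flox control 3. In ASPC-like nuclei it was 2 with DESeq2 and 1 with no filter on low counts. In endothelial-like nuclei it was 1 with DESeq2 and 2 with no filter. In the whole tissue it was 8 with DESeq2, 1 within the adipose classes, 1 with no filter, and 0 to 9 when each library was left out, the 9 without knockout 2. The adipocyte states gave 0 to 2 over libraries left out, the 2 without knockout 1. The endothelial-minus-ASPC difference, 1 in the reported fit, gave 0 to 1. Leaving out cluster c6, keeping the adipose classes alone and leaving libraries out in the states were chosen after seeing the data. The share of all genes called is not given for these alternatives, and the causes were not tested.

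With the replicate block the count was 1 in endothelial-like nuclei (Col13a1, log2 fold change 2.03, edgeR adjusted p = 0.038) and 2 in the whole tissue, and the block changed no other call among the collagens. Deviations of same-numbered libraries had r of 0.0754, 0.323 and 0.372 in adipocyte-like nuclei, beside -0.333 to 0.194 for differently numbered ones. In ASPC-like nuclei r was -0.0844, 0.144 and -0.0642, beside -0.148 to 0.193. In endothelial-like nuclei r was 0.0849, 0.085 and -0.0084, beside -0.118 to 0.0538. What same-numbered libraries share beyond the number is not given in the sources used here. Among collagens with an unadjusted p under 0.05, 405 values under alternatives kept their side of the threshold, 35 passed it newly, 5 lost it and 0 reversed.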
